A study of Mus musculus with 16 samples.

Results

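The genes described here are 56 genes of mitosis and chromosome segregation. They were chosen by name from the textbook machinery of cell division, with earlier results of these data known. They were 56 of 20972 named genes on the array, each had at least 1 probe, and all 56 passed the filter on dim probes. They were measured in donor T cells of mice after haematopoietic stem cell transplantation, a model of ovarian graft-versus-host disease in which an allogeneic graft differs genetically from its host and a syngeneic graft does not. All samples were from female mice of C57BL/6 background, and the labels name no donor strain and no time after transplantation. Allogeneic recipients gave CD8+ T cells of the ovary (4 arrays) and of the spleen (3 arrays), syngeneic recipients gave splenic CD8+ T cells (3 arrays), and CD4+ T cells came from the same 3 sources (2 arrays each). Up to 10000 cells per sample were sorted in consecutive rounds into Trizol, and amplified RNA was labelled with Cy3 for 1-colour Agilent arrays. Whether the replicates of a group are separate animals is not stated, so p-values reflect no more than sample-to-sample spread, which may be technical.

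A cell enters mitosis when CDK1 bound to cyclin B becomes active, builds a spindle whose microtubules attach to kinetochores on each chromosome, and is held by the spindle checkpoint until all are attached. The anaphase-promoting complex then destroys cyclin B and securin, separase opens cohesin, the sister chromatids part and the cell divides by cytokinesis. Most of these genes are transcribed in late S phase and G2, so their transcripts mark a population that contains dividing cells. T cells divide rapidly once their receptor meets antigen, and resting T cells hold little of these transcripts.

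Many genes of this set share a promoter layout in which CCAAT boxes, which bind NF-Y, lie upstream of a cell cycle homology region of the letters TTTGAA or TTTAAA, which is read by the DREAM and MuvB complexes and separates late from early cell cycle genes. RefSeq promoter windows of assembly GRCm38.p6, spanning 250 bases before to 50 bases after the start, were found for 46 of the 56 genes, with 49 windows in all because Ect2, Bub3 and Prc1 had more than 1. Incenp, Pbk, Aurkb, Spc24, Kif20a, Smc4, Ccna2, Tpx2, Cdc25c and Foxm1 had none in the table used. On either strand, CCAAT was in 38 of the 49 windows (77.6%), against 37.4% of all 32851 windows. TTTGAA was in 36 (73.5%), against 17.9% of all windows, and the palindrome TTTAAA in 9 (18.4%), against 13.2%. CCAAT together with TTTGAA or TTTAAA was in 34 (69.4%), against 10.7%. The E2F-like letters TTCGCGC were in 2 (4.08%), against 1.59%, and TTGGCGC in 8 (16.3%), against 2.45%. In 28 windows of 23 S-phase genes the order was different, with TTTGAA in 3 (10.7%) and the letters TTCGCGC in 7. Of 46 matches to TTTGAA in the 49 windows, 33 began within 50 bases of the start, and the median position was 16 bases before it. A match is a description of these letters and not a site shown to be used.

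The 6 windows below belong to the genes with the smallest adjusted p among those described with values whose window held CCAAT and the letters of the cell cycle homology region. They are shown because they carry the shared layout most of these genes have. The Ccnb2 window was chr9:70421505-70421804 on the minus strand. The Prc1 window was chr7:80294201-80294500 on the plus strand. The Ube2c window was chr2:164769679-164769978 on the plus strand. The Kif4 window was chrX:100625815-100626114 on the plus strand. The Cdca3 window was chr6:124829926-124830225 on the plus strand. The Aurka window was chr2:172370521-172370820 on the minus strand. Capitals mark the CCAAT letters, the letters of the cell cycle homology region and the reverse complements of both, and a CCAAT can overlap its own reverse complement.
Ccnb2: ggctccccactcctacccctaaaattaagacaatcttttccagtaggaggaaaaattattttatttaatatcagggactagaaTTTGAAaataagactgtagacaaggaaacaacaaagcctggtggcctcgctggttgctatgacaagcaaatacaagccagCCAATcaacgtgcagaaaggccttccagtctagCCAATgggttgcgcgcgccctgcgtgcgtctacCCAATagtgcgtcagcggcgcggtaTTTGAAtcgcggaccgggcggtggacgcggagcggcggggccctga
Prc1: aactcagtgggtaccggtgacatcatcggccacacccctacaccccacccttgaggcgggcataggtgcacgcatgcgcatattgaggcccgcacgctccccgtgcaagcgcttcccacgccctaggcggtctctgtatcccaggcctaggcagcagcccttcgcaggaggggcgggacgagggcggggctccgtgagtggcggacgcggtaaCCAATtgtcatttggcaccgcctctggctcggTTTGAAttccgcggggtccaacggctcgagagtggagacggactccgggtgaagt
Ube2c: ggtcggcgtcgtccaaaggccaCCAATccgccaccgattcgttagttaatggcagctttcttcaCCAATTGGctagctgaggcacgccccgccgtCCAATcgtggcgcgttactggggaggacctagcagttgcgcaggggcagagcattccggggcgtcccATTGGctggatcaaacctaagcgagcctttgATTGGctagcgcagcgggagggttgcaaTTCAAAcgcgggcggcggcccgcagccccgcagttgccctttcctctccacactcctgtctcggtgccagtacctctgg
Kif4: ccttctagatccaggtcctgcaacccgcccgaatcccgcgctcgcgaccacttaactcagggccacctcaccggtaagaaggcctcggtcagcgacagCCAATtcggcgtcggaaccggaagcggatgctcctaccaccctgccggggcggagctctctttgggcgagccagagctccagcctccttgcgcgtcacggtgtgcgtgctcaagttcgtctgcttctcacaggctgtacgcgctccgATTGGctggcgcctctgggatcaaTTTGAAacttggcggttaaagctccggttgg
Cdca3: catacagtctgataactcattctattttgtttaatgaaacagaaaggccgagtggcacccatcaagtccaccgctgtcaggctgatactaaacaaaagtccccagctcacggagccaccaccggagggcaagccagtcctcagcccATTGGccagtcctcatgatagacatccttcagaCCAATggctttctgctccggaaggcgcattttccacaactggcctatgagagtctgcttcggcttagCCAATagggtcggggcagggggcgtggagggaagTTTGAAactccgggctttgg
Aurka: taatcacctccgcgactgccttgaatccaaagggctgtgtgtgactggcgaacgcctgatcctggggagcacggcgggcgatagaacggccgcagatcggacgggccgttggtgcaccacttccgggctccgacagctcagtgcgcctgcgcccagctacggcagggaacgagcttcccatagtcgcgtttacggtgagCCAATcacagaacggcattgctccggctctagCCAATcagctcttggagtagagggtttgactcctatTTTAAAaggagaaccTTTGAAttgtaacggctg
Ccnb2, Ube2c and Cdca3 held several CCAAT letters before the start, and in all 6 windows a TTTGAA or its reverse complement began between 29 bases before and 32 bases after the start. Of the genes with small differences between transplants described further on, Hmmr, Kif23, Racgap1 and Bub3 had windows with CCAAT and TTTGAA, and the window of Pttg1 held neither. Among the 46 genes, the median allogeneic minus syngeneic log2 difference in CD8+ cells was 3.79 for the 33 with TTTGAA and 4.15 for the 13 without it.

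Levels are given as the log2 processed signal relative to the array's 75th percentile, so 0 is the level of the probe at that percentile, and differences are log2 differences of group means with the standard error (SE) of a limma fit over all 16 arrays. A gene was called where its Benjamini-Hochberg adjusted p over all 22836 features was below 0.05. The 75th percentile of the signal ran from 67.6 to 449.7 units over the arrays, and the second CD4+ arrays of ovary and of allogeneic spleen were the dimmest, at 68.2 and 67.6. The first CD4+ arrays of these groups, at 133.2 and 140.7, came next, and every other array had at least 156.2. Comparisons of allogeneic CD4+ cells with CD8+ or syngeneic cells thus also set dimmer against brighter arrays. The part of brightness in them was not tested. Across probes, which are not independent, Pearson r within a group was 0.938 to 0.996. Cd8a was not well above background on any CD4+ array, and its lowest level on the CD8+ arrays was 4.71. The other CD8 marker, Cd8b1, was well above background on every splenic CD4+ array. The summed linear level of the 2 was 0.177 to 1.17 on CD4+ arrays and 85.0 to 142 on CD8+ arrays. Cd4 lay between 1.42 and 2.45 on CD8+ arrays, against 4.48 to 5.56 on CD4+ arrays. Of the 9 measured macrophage and monocyte genes, all 9 were well above background on every CD4+ array of each CD4+ group, and their summed linear level there was 38.2 to 92.1 in ovary, 75.7 to 95.9 in allogeneic spleen and 20.8 to 37.4 in syngeneic spleen, while on CD8+ arrays it was 6.42 to 9.91. Of 10 B-cell genes, the summed level was 1.75 to 2.87 in ovarian CD8+ cells, 3.59 to 6.19 in allogeneic splenic CD8+ cells and 17.5 to 29.8 in syngeneic splenic CD8+ cells. In CD4+ cells it was 2.05 to 2.32, 10.1 to 11.8 and 41.4 to 89.0 in the same order of groups. Of ovarian markers, 2 of 5 theca and luteal genes and 1 of 6 granulosa genes were called higher in ovary than in allogeneic spleen in each subset. Of all features, 0.263% were in CD8+ cells and 0.394% in CD4+ cells. None of these markers was called lower. Of 4 stromal genes, 1 was called higher in CD8+ cells and 1 lower in CD4+ cells. The part of any of these cells in the results below was not tested. In sorted bulk samples, fewer dividing cells and less RNA of these genes per cell cannot be told apart.

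The median level of the mitotic genes separated the transplant groups on every array. It was 2.36, 2.35, 2.35 and 2.33 on the arrays of ovarian CD8+ cells, 2.91, 2.75 and 2.52 in allogeneic splenic CD8+ cells, and -1.28, -1.19 and -0.70 in syngeneic splenic CD8+ cells. In CD4+ cells it was 1.38 and 1.89 in ovary, 1.15 and 0.79 in allogeneic spleen, and -0.95 and -0.49 in syngeneic spleen. Every allogeneic array lay above every syngeneic array, every allogeneic CD8+ array above every CD4+ array, and the 4 ovarian CD8+ arrays lay within a narrow band below the allogeneic splenic CD8+ arrays. Gene by gene, 48 of the 56 had all 4 allogeneic group means above both syngeneic means. The highest of the 6 group means was that of allogeneic splenic CD8+ cells for 50 genes, of ovarian CD8+ cells for 5 and of syngeneic splenic CD8+ cells for 1, and the lowest was that of syngeneic splenic CD8+ cells for 44. For 45 of the 56, the 4 allogeneic means stood in 1 order, with allogeneic splenic CD8+ first, then ovarian CD8+, ovarian CD4+ and allogeneic splenic CD4+. These orders are descriptions of group means.

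**Figure D1:**
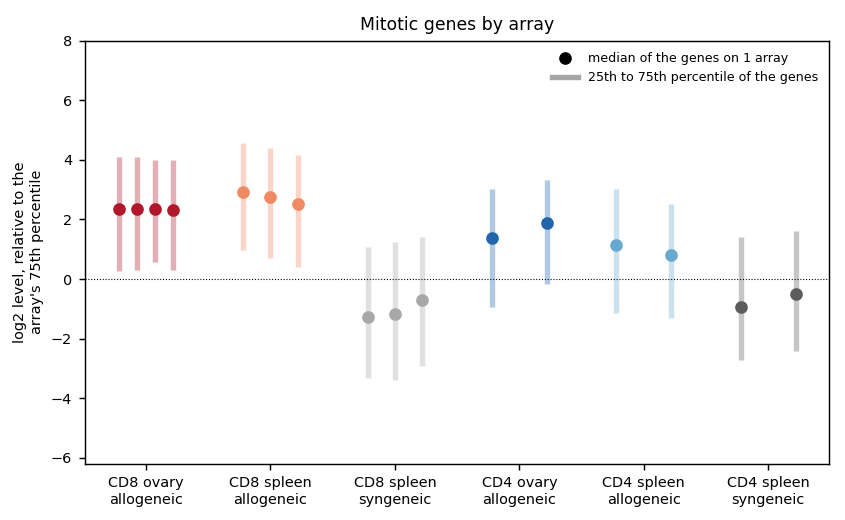
Median log2 level (relative to the array's 75th percentile) of the mitotic genes on each of the 16 arrays, with bars from the 25th to the 75th percentile of the genes; each point is 1 array, grouped by subset, tissue and transplant. The ovarian CD8+ arrays lie between 2.33 and 2.36, and all syngeneic arrays lie below 0.

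**Figure D2:**
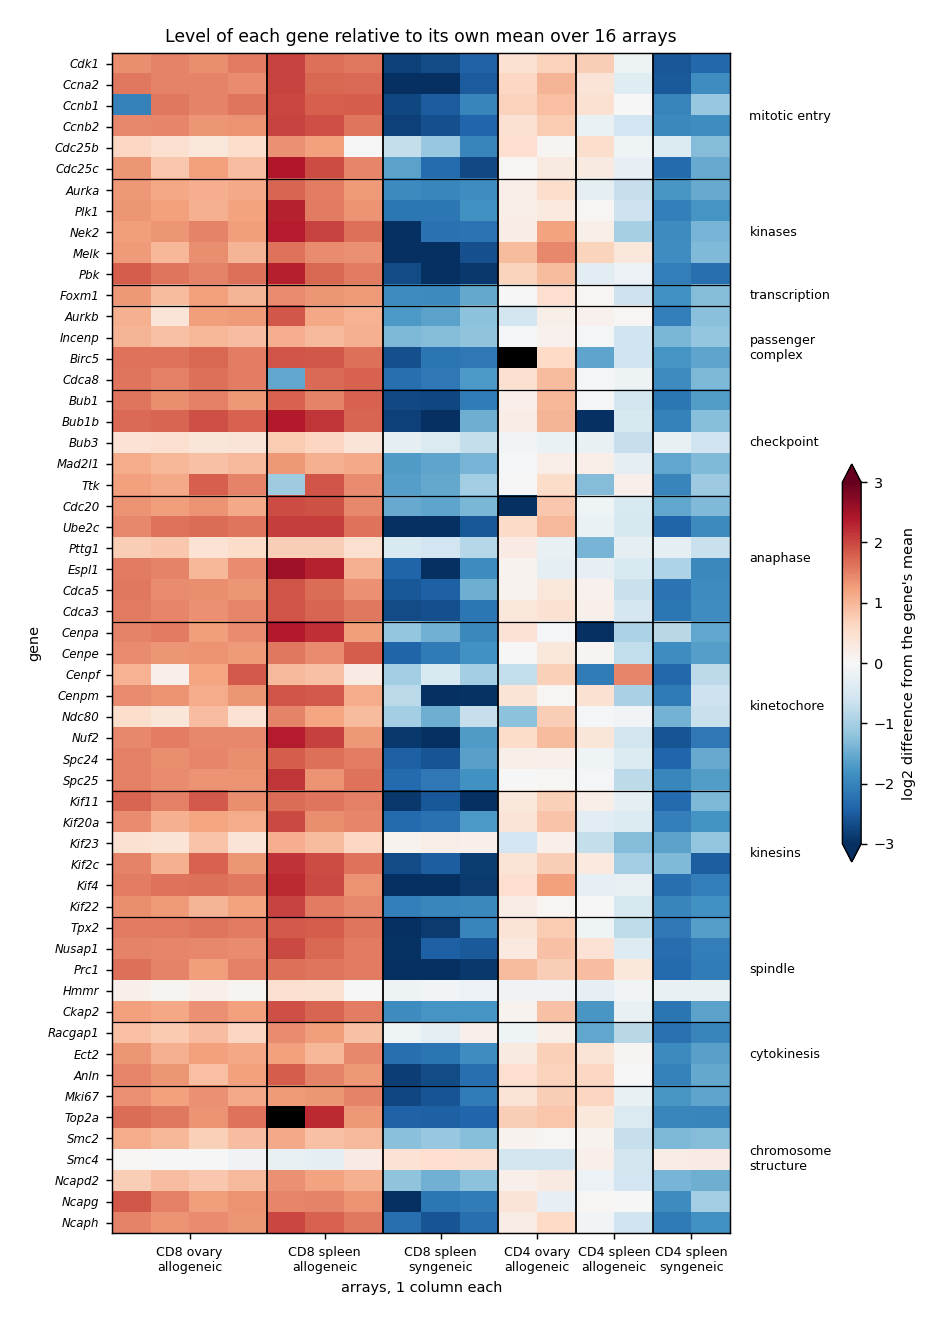
Log2 level of each gene on each array, relative to the gene's own mean over the 16 arrays, in order of role; columns are arrays, colours stop at 3 log2 units either way, and black marks the 2 values left out as outlier spots. Smc4, Hmmr and Bub3 vary little beside the others, and single cells of the map such as Ccnb1 in the first ovarian CD8+ array or Cdc20 in the first ovarian CD4+ array depart from the rest of their group.

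In splenic CD8+ cells, the mitotic genes were far higher after allogeneic than after syngeneic transplantation. Of the 56, 54 rose, where 18.8% of all features rose, and 1 fell, where 19.6% fell. The filter asked for signal in only 1 group, so some genes entered through a group where they were high. Of the 41 genes well above background on all arrays, 40 rose and 1 fell, where 6990 of 15546 features were called in either direction. The median difference of the 56 was 3.82, against -0.16 over all features, and 18 of them lay within the highest 1% of all features by difference. The median was 4.05 on slide 1 alone and 3.67 on slide 2 alone. The arrays of the groups did not overlap for 54 genes that were higher, where this held for 24.2% of all features, and for 1 that was lower, where it held for 29.3%. With another background correction (normexp) the median difference was 2.50, and 53 rose and 1 fell.

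The engine of mitotic entry rose throughout. Ccnb2, a mitotic cyclin, had levels of 5.80, 5.70 and 5.37 in allogeneic cells and 0.98, 1.14 and 1.38 in syngeneic cells, a difference of 4.46 ± 0.16 (SE, adjusted p = 5.10e-09), the smallest adjusted p of the set. Cdk1, the mitotic kinase, had 2.23, 1.86 and 1.79 in allogeneic cells and -2.57, -2.47 and -2.21 in syngeneic cells (4.38 ± 0.21, adjusted p = 2.88e-08). Neither pair of groups overlapped. Ccna2, the cyclin of S phase and G2, rose by 4.71 ± 0.24 and Ccnb1, the chief mitotic cyclin, by 4.27 ± 0.76, with levels of 3.64, 3.41 and 3.44 in allogeneic cells and -1.09, -0.87 and -0.35 in syngeneic cells. Of the phosphatases that switch CDK1 on, Cdc25b rose by 2.15 ± 0.40. Cdc25c was not well above background on any syngeneic CD8+ array, and was at least 8.41-fold higher in allogeneic cells (adjusted p = 1.10e-06). Such bounds set the mean of the brighter group against, on each dim array, the lowest signal well above background.

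All 5 further mitotic kinases rose. Nek2, a centrosome kinase, had 0.67, 0.34 and -0.03 in allogeneic cells, against -5.93, -3.93 and -3.92 in syngeneic cells, where 1 of 3 arrays was well above background. Its fitted difference of 4.92 ± 0.49 (adjusted p = 9.01e-06) thus rested in part on signals below background, and was 4.25 without the first syngeneic array. The groups did not overlap. Plk1, which drives centrosome maturation and spindle assembly, had 5.27, 4.52 and 4.31 in allogeneic cells and 0.80, 0.78 and 1.14 in syngeneic cells (3.79 ± 0.24, adjusted p = 2.21e-07). Aurka, the kinase of spindle poles, rose by 3.44 ± 0.16, Melk by 4.58 ± 0.23 and Pbk by 4.85 ± 0.22. Pbk, too, was well above background on 1 of 3 syngeneic arrays. Foxm1, the transcription factor that activates many G2 and mitotic genes, had 1.11, 1.01 and 0.96 in allogeneic cells and -2.20, -2.22 and -1.85 in syngeneic cells (3.12 ± 0.21, adjusted p = 3.49e-07).

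All 4 subunits of the chromosomal passenger complex, which corrects faulty attachments and steers cytokinesis, rose. Birc5 (survivin) had 6.85, 6.82 and 6.62 in allogeneic cells and 2.33, 2.77 and 2.82 in syngeneic cells (4.12 ± 0.23, adjusted p = 1.57e-07). The scaffold Incenp rose by 2.33 ± 0.14. The kinase Aurkb was not well above background in syngeneic CD8+ cells and was at least 1.84-fold higher in allogeneic cells (adjusted p = 1.89e-05). Cdca8 (borealin) rose by 2.69 ± 0.65, with 1.95, 5.21 and 5.27 in allogeneic cells and 1.24, 1.35 and 1.78 in syngeneic cells. The allogeneic array at 1.95 lay far below its replicates and still above every syngeneic array. The second Cdca8 probe had 2.13, 1.76 and 1.07 on the same allogeneic arrays, so that there the first array was the highest.

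The spindle checkpoint kinases and their partners rose with 1 small response among them. Bub1 rose by 4.19 ± 0.25, Bub1b, well above background on 2 of 3 syngeneic arrays, by 4.62 ± 0.61 and Mad2l1, which inhibits the anaphase activator, by 2.74 ± 0.15. Bub3, their shared binding partner, had 4.40, 4.27 and 4.01 in allogeneic cells and 3.33, 3.20 and 2.90 in syngeneic cells, without overlap (1.08 ± 0.17, adjusted p = 0.000333). Ttk, the kinase that starts the checkpoint signal, was not well above background in syngeneic cells and was at least 1.13-fold higher in allogeneic cells, where 2 of 3 arrays measured it. In anaphase, Cdc20, the activator of the anaphase-promoting complex, had 5.14, 5.10 and 4.63 in allogeneic cells and 1.67, 1.62 and 1.82 in syngeneic cells (3.25 ± 0.69, adjusted p = 0.00283). Ube2c, its ubiquitin-conjugating enzyme, rose by 4.81 ± 0.20 (adjusted p = 1.21e-08). Espl1 (separase), well above background on 2 of 3 syngeneic arrays, rose by 4.53 ± 0.43, Cdca5 (sororin) by 3.79 ± 0.28 and Cdca3 by 4.23 ± 0.19. Pttg1 (securin), the inhibitor of separase, rose by only 1.28 ± 0.25.

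At the centromere and kinetochore 7 of 8 genes rose and Cenpf did not pass. Cenpa, the histone H3 variant that marks centromeres, rose by 3.46 ± 0.59, the kinetochore motor Cenpe by 3.72 ± 0.21 and Cenpm by 4.02 ± 0.61. The 4 subunits of the NDC80 complex, which holds microtubule ends, rose by 2.26 ± 0.41 (Ndc80), 4.61 ± 0.41 (Nuf2), 3.89 ± 0.25 (Spc24) and 3.80 ± 0.23 (Spc25). Cenpm and Nuf2 were well above background on 1 of 3 syngeneic arrays each, so the sizes of their differences rest in part on signals below background. Cenpf had levels of -3.20, -3.30 and -3.93 in allogeneic cells, 2 of them well above background, and -5.21, -4.64 and -5.18 in syngeneic cells, none of them well above background (adjusted p = 0.131).

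Among the kinesins, the chromokinesin Kif4 was not well above background in syngeneic CD8+ cells and was at least 18.1-fold higher in allogeneic cells (adjusted p = 1.80e-08), and the microtubule depolymerase Kif2c was at least 11.6-fold higher (adjusted p = 9.88e-07). Kif11, which pushes the spindle poles apart and was well above background on 2 of 3 syngeneic arrays, rose by 4.47 ± 0.25, Kif20a by 3.71 ± 0.21 and Kif22 by 3.64 ± 0.18. Of the spindle-building genes, Prc1, which bundles the central spindle, had 4.47, 4.43 and 4.36 in allogeneic cells and -0.31, -0.42 and -0.08 in syngeneic cells (4.69 ± 0.17, adjusted p = 5.27e-09). Tpx2 rose by 4.42 ± 0.27, Nusap1 by 4.40 ± 0.23 and Ckap2 by 3.54 ± 0.32. A second Tpx2 probe that passed the filter, well above background on 11 arrays, differed by only 0.70. Anln (anillin) and Ect2, which build the contractile ring, rose by 4.13 ± 0.23 and 3.32 ± 0.18. Of the chromosome structure genes, Mki67, the coat protein used as a marker of cycling cells, had 5.68, 5.72 and 5.90 in allogeneic cells and 1.67, 1.81 and 2.31 in syngeneic cells (3.84 ± 0.22, adjusted p = 1.04e-07). Top2a, which untangles DNA, rose by 4.18 ± 0.27 on the 2 allogeneic arrays without an outlier flag. The condensin subunits Ncaph, Ncapd2 and Smc2 rose by 4.15 ± 0.18, 2.51 ± 0.14 and 2.22 ± 0.18, and Ncapg was at least 5.56-fold higher.

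A few genes stood apart in the size or direction of their difference, and they were singled out after their values were seen. Smc4, the partner of Smc2 in condensin, had 5.39, 5.32 and 5.86 in allogeneic cells and 6.04, 6.12 and 6.10 in syngeneic cells. It was lower on every allogeneic array, by -0.56 ± 0.18 (adjusted p = 0.0294), a call that was lost when any 1 of 5 of these 6 arrays was left out and without the filter on dim probes (adjusted p between 0.0557 and 0.112 in those settings), and the difference was -0.24 on slide 2 alone. Hmmr, a spindle protein also known as the hyaluronan receptor RHAMM, had 2.54, 2.51 and 2.06 in allogeneic cells and 1.90, 1.99 and 1.89 in syngeneic cells (0.44 ± 0.13, adjusted p = 0.0209). Kif23 and Racgap1 together form the centralspindlin complex of the cleavage plane. Kif23 had 0.83, 0.68 and 0.35 in allogeneic cells and -0.15, -0.07 and -0.12 in syngeneic cells (0.74 ± 0.23, adjusted p = 0.0224). Racgap1 had 4.55, 4.39 and 4.01 in allogeneic cells and 2.99, 2.86 and 3.27 in syngeneic cells (1.27 ± 0.21, adjusted p = 0.000479). For Hmmr, Kif23 and Racgap1 the groups did not overlap, and Bub3 and Pttg1 were the other genes with a difference under 1.5 among the 55 that were called.

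**Figure D3:**
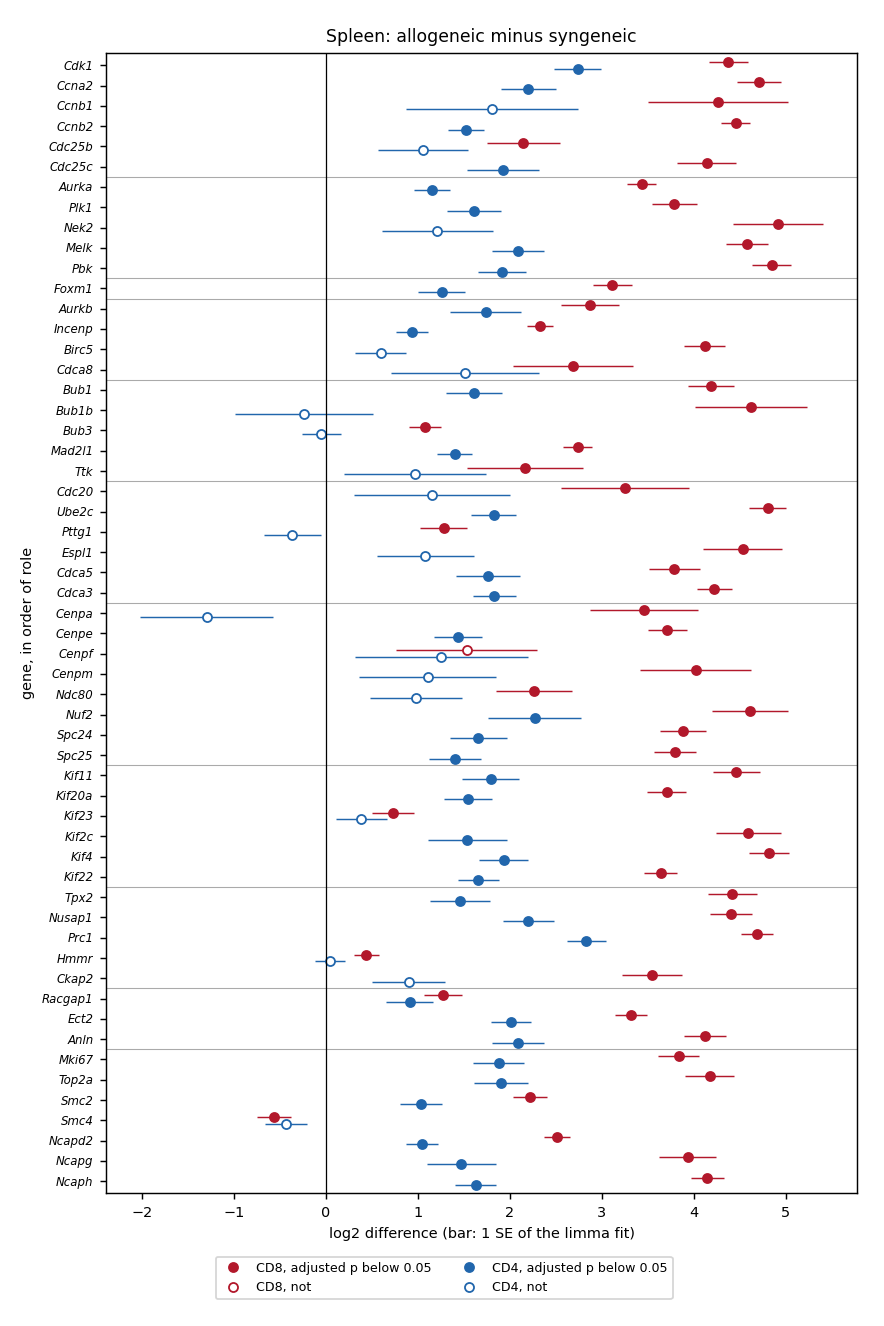
Allogeneic minus syngeneic log2 difference in the spleen for each gene, in order of role, in CD8+ cells (red) and CD4+ cells (blue); bars are 1 SE, and filled points have an adjusted p below 0.05. In CD8+ cells 54 genes are filled to the right of 0, in CD4+ cells 37, and Smc4 is the 1 filled point to the left. Points of genes not well above background in a group rest on signals below it.

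In splenic CD4+ cells the same machinery was higher after allogeneic than after syngeneic transplantation, by smaller differences. Of the 56, 37 rose, where 10.4% of all features rose, and 0 fell in the limma fit, where 5.7% of all features fell. Of the 41 genes well above background on all arrays, 29 rose, where 2994 of 15546 features were called in either direction. At an unadjusted p below 0.05, 0 of the 56 and 13% of all features were lower. Their median difference was 1.49, against 0.04 over all features, and 51 were above 0, as were 52.6% of all features. It was 1.91 on slide 1 alone and 1.16 on slide 2 alone. Fitted to these 4 arrays alone, with 2 residual degrees of freedom, the count was 0 of 56, where 7 of 22836 features were called in either direction.

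Prc1 had 3.73 and 3.14 in allogeneic CD4+ cells and 0.48 and 0.72 in syngeneic CD4+ cells, the largest difference (2.83 ± 0.21, adjusted p = 1.20e-05). Cdk1 had 0.94 and 0.06 in allogeneic cells and -2.35 and -2.13 in syngeneic cells (2.74 ± 0.26, adjusted p = 4.95e-05). Neither pair of groups overlapped. With 2 arrays per group this is a description, and the share of all features without overlap is not given for this comparison. The second Cdk1 probe differed by 0.96 and the third, dim one by 1.71. Ccna2 rose by 2.20 ± 0.30, Ccnb2 by 1.52 ± 0.20, Melk by 2.09 ± 0.28 and Plk1 by 1.61 ± 0.30 (adjusted p = 0.00358). Foxm1 rose by 1.26 ± 0.26 (adjusted p = 0.00638), and Mki67 had 5.06 and 4.17 in allogeneic cells against 2.65 and 2.82 in syngeneic cells (1.88 ± 0.27, adjusted p = 0.000849).

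Further genes in CD4+ cells followed by role. The cytokinesis genes Ect2 and Anln rose by 2.02 ± 0.22 and 2.09 ± 0.28, Nusap1 by 2.20 ± 0.28, Cdca3 by 1.84 ± 0.23, Ube2c by 1.83 ± 0.25, Kif22 by 1.66 ± 0.22, Mad2l1 by 1.40 ± 0.19 and Top2a by 1.90 ± 0.29. All 3 cytokinesis genes, 6 of the 7 genes of chromosome structure and 5 of the 6 kinesins rose, against 2 of the 5 checkpoint genes and 2 of the 4 passenger complex genes. Cdc25c and Ncapg were not well above background on the syngeneic CD4+ arrays and, each on 1 of 2 allogeneic arrays well above it, were at least 2.45-fold and 2.28-fold higher. Aurkb, 1 of the 37, was not well above background in either group, so no fold is given for it.

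The 19 genes without a call in CD4+ cells included flat ones and ones with 1 discordant array. Bub3 had 3.41 and 2.94 in allogeneic CD4+ cells and 3.41 and 3.04 in syngeneic CD4+ cells (-0.05 ± 0.21, adjusted p = 0.913). Birc5 had 3.39 and 4.37 in allogeneic cells against 3.19 and 3.39 in syngeneic cells (0.60 ± 0.28, adjusted p = 0.170). The other 2 Birc5 probes were higher on both allogeneic arrays, at 1.37 and 0.73 against -0.94 and -0.22 in syngeneic cells for 1 probe and at 0.88 and 0.32 against -1.53 and -1.19 for the other. Cenpa had the lowest difference, -1.29 ± 0.72 (adjusted p = 0.252), with -2.18 and 0.89 in allogeneic cells and 1.01 and 0.29 in syngeneic cells. Without the second allogeneic array the Cenpa difference was -2.83 (adjusted p = 0.00126). Ccnb1 (1.81 ± 0.94, adjusted p = 0.217) and Cdc20 (1.16 ± 0.85, adjusted p = 0.396) carried large errors, and each had 1 array in another group that lay far from its replicates. For Cdc20 the allogeneic levels were 3.07 and 2.73 and the syngeneic levels 1.63 and 1.85, without overlap.

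The difference between transplants was larger in CD8+ than in CD4+ cells. Tested as an interaction of transplant and subset, 43 of the 56 had a larger difference in CD8+ cells and 0 a smaller one, where 5.27% of all features were called in the first direction and 6.67% in the second. Of the 41 genes well above background on all arrays, 32 had a larger difference, where 2698 of 15546 features were called in either direction. Of the 56, 0 were smaller at an unadjusted p below 0.05, against 16.8% of all features. The median interaction was 2.21, against -0.10 over all features. It was 2.93 ± 0.26 for Ccnb2 (adjusted p = 7.47e-05), 2.98 ± 0.32 for Ube2c, 3.52 ± 0.36 for Birc5, 2.28 ± 0.26 for Aurka, 2.52 ± 0.29 for Ncaph and 2.93 ± 0.34 for Pbk. Bub1b had a value of 4.86 ± 0.96 (adjusted p = 0.00883), and its allogeneic CD4+ arrays lay at -4.71 and -1.88, of which 1 was well above background. Pbk and Bub1b also had syngeneic CD8+ arrays below background, so the sizes of their interactions rest in part on such signals. Smc4 had the only negative value (-0.13 ± 0.29, adjusted p = 0.797). Racgap1 (0.36 ± 0.33) and Kif23 (0.35 ± 0.36) were not called, with adjusted p of 0.495 and 0.543. The allogeneic CD4+ arrays, dimmer than those of the other groups here, enter this interaction, and the part of brightness was not tested.

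Within allogeneic recipients, ovarian CD8+ cells were a little lower than splenic CD8+ cells for most of these genes, and 0 of the 56 passed the limma test in either direction, where 0.263% of all features rose and 0.267% fell. The median difference was -0.30, against 0.03 over all features, and 50 of the 56 were below 0, where 54% of all features were above it. At an unadjusted p below 0.05, 7 were lower and 0 higher, where 4.45% of all features were lower and 3.86% higher. This count hung on single splenic arrays. Without the first, the brightest array, 0 were lower and the median difference was -0.17. Without the third, 14 were lower and 1 higher, with a median of -0.39. For 18 of the 56 all 4 ovarian arrays lay below all 3 splenic arrays, where 5.32% of all features did so, and for 0 they lay above, where 7.37% did. The median was -0.38 on slide 1 alone and -0.13 on slide 2 alone. With array weights, whose estimation stopped before it converged and under which 10642 of all features were called, 33 were lower and 2 higher.

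Ccnb2 had 5.22, 5.22, 5.10 and 5.12 in ovarian CD8+ cells and 5.80, 5.70 and 5.37 in splenic CD8+ cells, without overlap (-0.46 ± 0.15, adjusted p = 0.344). Plk1 had 4.29, 4.18, 4.02 and 4.16 in ovarian cells and 5.27, 4.52 and 4.31 in splenic cells (-0.54 ± 0.23, adjusted p = 0.542). Mki67 overlapped, with 5.78, 5.65, 5.78 and 5.53 in ovarian cells and 5.68, 5.72 and 5.90 in splenic cells (-0.08 ± 0.21, adjusted p = 0.976). Foxm1 differed by -0.21 ± 0.20, Cdk1 by -0.28 ± 0.20, Birc5 by -0.17 ± 0.21, Top2a by -0.21 ± 0.25, Bub3 by -0.18 ± 0.16, Aurkb by -0.36 ± 0.29 and Cdc20 by -0.49 ± 0.65, with adjusted p of 0.772 to 0.914. None of these genes passed the test.

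In the genes with the extreme differences, 1 array stood far from its replicates. Ccnb1 had -0.40, 3.21, 3.13 and 3.24 in ovarian CD8+ cells and 3.64, 3.41 and 3.44 in splenic CD8+ cells (-1.20 ± 0.71, adjusted p = 0.718). On its other 2 probes this array did not lie apart, at -1.15 where the 4 ovarian arrays reached up to -0.58, and at -0.34 where they reached up to 0.13. Cdca8 had 5.10, 5.02, 5.15 and 5.05 in ovarian cells and 1.95, 5.21 and 5.27 in splenic cells (0.93 ± 0.61, adjusted p = 0.745), and its second probe had 1.06, 1.01, 1.18 and 1.12 in ovarian cells and 2.13, 1.76 and 1.07 in splenic cells.

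**Figure D4:**
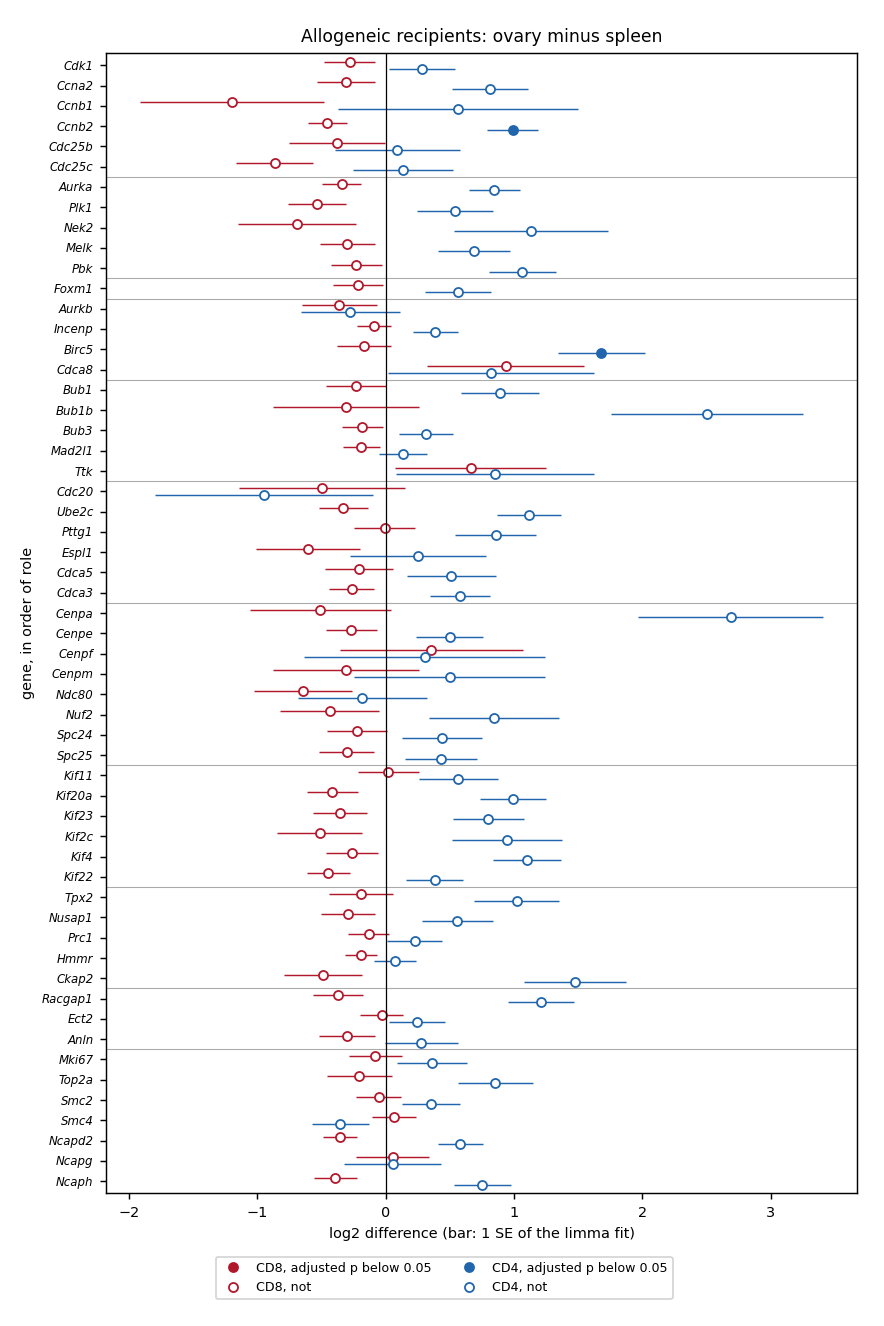
Ovary minus allogeneic spleen log2 difference for each gene, in order of role, in CD8+ cells (red) and CD4+ cells (blue); bars are 1 SE, and filled points have an adjusted p below 0.05. Most red points lie left of 0 and most blue points right of it, and Ccnb2 and Birc5 in CD4+ cells are the 2 filled points. Points of genes not well above background, such as Aurkb in CD4+ cells, rest on signals below it.

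In CD4+ cells most of these genes were above 0 for ovary minus allogeneic spleen. Of the 56, 2 rose in ovary, where 0.394% of all features rose, and 0 fell, where 0.512% fell. At an unadjusted p below 0.05, 24 were higher and 0 lower, where 7.9% of all features were higher and 7.75% lower. The median difference was 0.56, against -0.04 over all features, and 52 were above 0, as were 46.1% of all features. For 33 of the 56 both ovarian arrays lay above both splenic arrays, where 15.7% of all features did so. The median was 0.18 on slide 1 alone and 0.98 on slide 2 alone, and 0.18 without the 2 dimmest arrays, which are 1 from each group.

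Ccnb2 had 4.22 and 4.53 in ovarian CD4+ cells and 3.58 and 3.20 in splenic CD4+ cells, without overlap (0.99 ± 0.20, adjusted p = 0.0412). Birc5 was measured on 1 ovarian array, at 5.57, because its spot on the other carried an outlier flag, and had 3.39 and 4.37 in splenic cells (1.68 ± 0.34, adjusted p = 0.0466). With 1 ovarian array this test assumes that it varies like the arrays of the other groups, from which the SE comes. Its other 2 probes had 1.66 and 2.10 in ovary against 1.37 and 0.73 in spleen, and 0.90 and 1.46 in ovary against 0.88 and 0.32 in spleen. Both calls were lost in most alternatives, that of Ccnb2 in 9 of 17 and that of Birc5 in 10 of 14. The adjusted p of Ccnb2 was up to 0.960, with only the groups compared in the limma fit. The Birc5 difference with the mean of its probes was 0.32 (adjusted p = 0.801). Mki67 had 4.82 and 5.13 in ovary and 5.06 and 4.17 in spleen (0.36 ± 0.27, adjusted p = 0.587), Cdk1 0.67 and 0.90 in ovary and 0.94 and 0.06 in spleen (0.29 ± 0.26, adjusted p = 0.666), and Plk1 3.15 and 3.26 in ovary and 3.00 and 2.33 in spleen (0.54 ± 0.30, adjusted p = 0.412). Mki67 and Cdk1 overlapped between tissues and Plk1 did not.

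Foxm1 differed by 0.57 ± 0.26 in CD4+ cells, Top2a by 0.85 ± 0.29, Bub3 by 0.31 ± 0.21 and Ccnb1 by 0.56 ± 0.94, none of them called. Aurkb was not well above background on any CD4+ array of either tissue, and no difference is given for it. The largest value, 2.69 ± 0.72 for Cenpa (adjusted p = 0.112), had 2.28 and 1.81 in ovary and -2.18 and 0.89 in spleen. The lowest, -0.95 ± 0.85 for Cdc20 (adjusted p = 0.661), had -0.09 and 3.99 in ovary and 3.07 and 2.73 in spleen. The values moved with the array left out: the Cdc20 difference was -2.99 without the second ovarian array, and the Cenpa difference was 4.23 without the second splenic array.

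Tested as an interaction of tissue and subset, 0 of the 56 passed, where 0% of all features were called in either direction, by limma. At an unadjusted p below 0.05, 29 were lower and 0 higher, where 5.37% of all features were lower and 5.75% higher. The median interaction was -0.85, against 0.06 over all features, and 52 were below 0, where 54.8% of all features were above it. The values ran from -3.20 for Cenpa (adjusted p = 0.279) to 0.45 for Cdc20 (adjusted p = 0.894). The median interaction was -0.71 without the second allogeneic splenic CD4+ array and -0.54 without the 2 dimmest arrays. These settings leave 1 array in at least 1 CD4+ group, so no count of called genes is read from them. The CD8+ and CD4+ comparisons of this interaction share no array.

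Between subsets, CD8+ cells held more of these transcripts than CD4+ cells in both allogeneic sites. In ovary 31 of 56 were higher in CD8+ cells, where 8.47% of all features were, and 0 were lower, where 9.03% were. At an unadjusted p below 0.05, 0 of the 56 and 14.9% of all features were lower. Of the 41 genes well above background on all arrays, 29 were higher, where 3518 of 15546 features were called in either direction. The median difference of the 56 was 0.86, against 0.07 over all features. In allogeneic spleen 47 were higher, where 15.2% of all features were, and 0 lower, where 14.3% were. Again 0 of the 56 were lower at an unadjusted p below 0.05, against 21.2% of all features. There the median difference was 1.88, against -0.06. Of the 41 genes well above background on all arrays, 37 were higher there, where 5656 of 15546 features were called in either direction. The macrophage and monocyte sum given earlier was higher in CD4+ cells in both sites, and its part in these differences was not tested. In both sites the CD4+ arrays were also dimmer than every CD8+ array, and the part of this was not tested. The ovarian count was 10 without the first ovarian CD4+ array and between 17 and 24 without any other single array of the groups, and 17 without the filter.

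In ovary, Incenp had 6.38, 6.25, 6.36 and 6.29 in CD8+ cells and 5.34 and 5.50 in CD4+ cells (0.90 ± 0.15, adjusted p = 0.00240), the smallest adjusted p. Spc25 had 4.84, 4.76, 4.68 and 4.68 in CD8+ cells and 3.34 and 3.38 in CD4+ cells (1.38 ± 0.24, adjusted p = 0.00297), and Kif22 4.21, 4.08, 3.83 and 4.01 in CD8+ cells and 3.04 and 2.86 in CD4+ cells (1.08 ± 0.19, adjusted p = 0.00303). None of the 3 overlapped, which is a description, since the share of all features without overlap is not given for this comparison. Differences between 0.66 and 1.28 were called for Mad2l1 (0.90 ± 0.16), Cdca3 (1.07 ± 0.20), Cenpe (1.17 ± 0.23), Ncaph (0.98 ± 0.19), Spc24 (1.28 ± 0.27), Aurka (0.81 ± 0.17), Ccnb2 (0.79 ± 0.17), Smc2 (0.88 ± 0.20) and Ncapd2 (0.66 ± 0.15). The largest, 2.51 ± 0.74 for Cdc20, included the CD4+ array at -0.09, and the lowest was Ccnb1 (-0.14 ± 0.81), which included the CD8+ array at -0.40.

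In allogeneic spleen, Ccnb2 differed by 2.23 ± 0.18 (adjusted p = 1.37e-05), Aurka by 2.00 ± 0.18, Birc5 by 2.88 ± 0.25, Ncaph by 2.12 ± 0.20, Racgap1 by 2.38 ± 0.23 and Ube2c by 2.26 ± 0.23, all higher in CD8+ cells. Ncapd2 (1.60 ± 0.16), Kif22 (1.91 ± 0.20), Cdca3 (1.91 ± 0.21), Pbk (2.12 ± 0.24), Incenp (1.38 ± 0.16) and Kif4 (2.09 ± 0.24) followed. The range ran from 0.11 ± 0.20 for Smc4, which was not called, to 4.43 ± 0.66 for Cenpa, whose CD4+ arrays lay at -2.18 and 0.89.

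In syngeneic spleen most genes were below 0 for CD8+ minus CD4+ cells. Of the 56, 2 were higher, where 1.27% of all features were, and 2 lower, where 2.88% were. The count of lower genes is near its share of all features, and nothing about the set is read from it. The median difference was -0.34, against 0.10 over all features, and 46 were below 0, where 63.3% of all features were above it. The 2 higher genes were the centralspindlin partners. Racgap1 had 2.99, 2.86 and 3.27 in syngeneic CD8+ cells and 0.89 and 1.15 in syngeneic CD4+ cells (2.02 ± 0.23, adjusted p = 0.000372), and its second probe had 1.85, 1.77 and 2.17 against 0.39 and 0.39. Kif23 had -0.15, -0.07 and -0.12 in CD8+ cells and -1.86 and -1.46 in CD4+ cells (1.54 ± 0.25, adjusted p = 0.00360). The groups did not overlap for either gene, a description for which the share of all features is not given. Both calls held when any 1 of these 5 arrays was left out.

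The 2 genes lower in syngeneic CD8+ cells were Melk and Prc1. Melk had -3.29, -3.34 and -2.62 in CD8+ cells and -1.83 and -1.29 in CD4+ cells (-1.52 ± 0.26, adjusted p = 0.00428), and Prc1 -0.31, -0.42 and -0.08 in CD8+ cells and 0.48 and 0.72 in CD4+ cells (-0.87 ± 0.19, adjusted p = 0.0243). Neither gene overlapped between subsets, which again is a description without a share of all features. The Prc1 call was lost without the filter (adjusted p = 0.0725) and on leaving out any of 4 of the 5 arrays, and the Melk call without the second syngeneic CD4+ array (adjusted p = 0.0822) and with normexp (-0.53, adjusted p = 0.223). These syngeneic arrays are also those of the transplant comparisons.

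**Figure D5:**
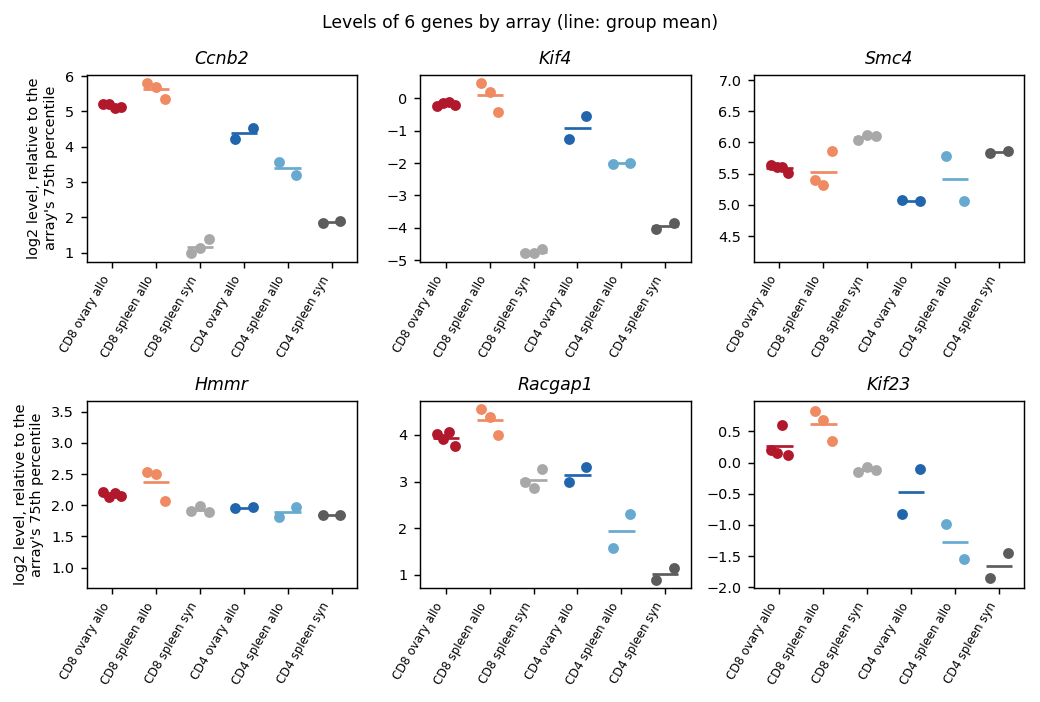
Log2 level (relative to the array's 75th percentile) of 6 genes on every array by group, with a line at the group mean. Ccnb2 and Kif4 follow the common pattern (Kif4 was not well above background on the syngeneic CD8+ arrays and on 1 of the 2 syngeneic CD4+ arrays), Smc4 and Hmmr vary little, and Racgap1 and Kif23 are higher in syngeneic CD8+ than in syngeneic CD4+ cells.

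Other genes of the cell cycle, taken from lists of genes outside the 56, were counted in the same fits. Of 28 measured S-phase genes, 26 rose in allogeneic against syngeneic splenic CD8+ cells (18.8% of all features did) and 0 fell, with a median of 2.18; Lig1, the ligase of replication, rose by 2.45 ± 0.15, Rrm2, which makes deoxynucleotides, by 3.78 ± 0.25, Mcm10 by 4.19 ± 0.31 and Pola1, a DNA polymerase subunit, by 2.20 ± 0.17. In splenic CD4+ cells 12 of the 28 rose (10.4% of all features did) and 0 fell, with a median of 0.61, among them Mcm6 (1.38 ± 0.23) and Rrm2 (1.80 ± 0.30). Between ovary and allogeneic spleen 0 of the 28 were called in CD8+ cells (median -0.18) and 0 in CD4+ cells (median 0.63) by limma, with 2 lower in CD8+ cells and 13 higher in CD4+ cells at an unadjusted p below 0.05, against 4.45% and 7.9% of all features. In ovary 12 were higher in CD8+ than in CD4+ cells (8.47% of all features were), and in allogeneic spleen 27 (15.2%).

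In allogeneic against syngeneic splenic CD8+ cells, where 18.8% of all features rose, 14 of 15 other outer kinetochore genes rose (median 2.34), with Trip13 at 3.54 ± 0.24 and Knl1 at 3.55 ± 0.26, as did 12 of 14 genes of the inner centromere network (median 2.39), with Cenpk at 3.88 ± 0.25. Of 14 other kinesin and spindle genes 13 rose (median 3.47), with Aspm at 4.50 ± 0.26, and of 15 condensin II, kinase and regulator genes 11 rose (median 1.76), with Mybl2, a subunit of the activating form of MuvB, at 3.24 ± 0.16. Of 14 measured core subunits and regulators of the anaphase-promoting complex 5 rose (median 0.24), with the inhibitor Fbxo5 at 2.06 ± 0.14. Of 11 cohesin and shugoshin genes 3 rose and 1 fell (median 0.21), where 18.8% of all features rose and 19.6% fell. With 11 genes these counts are near those shares, and nothing is read from them. The shugoshins Sgo1 and Sgo2a rose by 3.99 ± 0.20 and 4.54 ± 0.37 and the cohesin subunit Rad21 by 0.97 ± 0.14, and the cohesin loader Nipbl fell by 0.48 ± 0.17. In CD4+ cells, where 10.4% of all features rose, the counts of genes that rose were 4 of 15, 8 of 14, 10 of 14, 7 of 15, 1 of 14 and 2 of 11 in the same order of lists, of which the last 2 are near that share and nothing is read from them. There 1 of the 14 genes of the anaphase-promoting complex, Anapc5, fell, a share near the 5.7% of all features that fell. Between ovary and allogeneic spleen 0 of the 83 genes of these 6 lists were called by limma in CD8+ or CD4+ cells, with 4 lower in CD8+ cells, a share near the 4.45% of all features, and 16 higher in CD4+ cells, against 7.9% of all features, at an unadjusted p below 0.05.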

How the data were processed

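RNA of sorted T cells was measured on 16 Agilent 1-colour arrays (Cy3) on 2 slides that each held every group, with 1 scan date. Per the file headers, the authors deposited processed and raw spot intensity from Feature Extraction 11.5.1.1, with background subtraction done there. The deposited value table, on a log2 scale, matched the log2 processed intensity minus the array's 75th percentile and each probe's median over the arrays, and served as an alternative. From the processed intensity, log2 signal minus each array's 75th percentile was computed, outlier spots were left out (none was saturated), and a probe was kept if all arrays of some group had it well above background (31122 of 55681). Probes were named by transcript accession through RefSeq (27656 named), the probe with the highest mean over all arrays stood for its gene, and 22836 features were fitted. All 6 groups entered 1 limma 3.58.1 fit in R 4.3.3 with 10 residual degrees of freedom, and contrasts were adjusted by Benjamini-Hochberg over all features. Python 3.11.15, pandas 2.3.3, NumPy 2.4.6 and matplotlib 3.10.9 made summaries and figures.

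The number of arrays limits the precision. The fit was tested on simulated data with known changes. The mitotic genes, the other gene lists and the tests were chosen with earlier results of these data known. All 56 genes were accounted for by role. Named in any case were, per comparison, up to 12 called genes with the smallest adjusted p, the largest and smallest difference, and in the transplant and tissue comparisons Mki67, Cdk1, Ccnb1, Ccnb2, Birc5, Aurkb, Plk1, Top2a, Cdc20, Bub3 and Foxm1. For the other lists, counts and up to 4 called genes with the smallest adjusted p were given. Alternatives were quantile normalization, normexp background correction (offset 50, on the median signal, since a mean signal was not in the tables used), the deposited value table, no filter or a stricter one, the mean of a gene's probes, slide as a block or alone, a replicate block, array weights, only the groups compared, and leaving out each array or the 2 dimmest.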

Additional observations from a re-analysis of the deposited data

Results flagged for a closer look

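The 4 arrays of ovarian CD8+ cells were examined for a lone high or low array by Dixon's criterion, which needs at least 4 arrays in a group. Of 57 such tests 4 passed, and chance passes about 1 in 20. Ccnb1 was low on ovarian CD8+ replicate 1, at -0.40. Nuf2 was high on replicate 2, at -0.10, against others between -0.20 and -0.19. Kif23 was high on replicate 3, at 0.59, and Tpx2 was high on replicate 3, at 2.34.

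The allogeneic minus syngeneic difference was larger in CD8+ than in CD4+ splenic cells for 43 genes by the interaction of transplant and subset. Beside the values given above for Ccnb2 (2.93), Ube2c (2.98), Birc5 (3.52), Aurka (2.28), Ncaph (2.52), Pbk (2.93) and Bub1b (4.86), the interaction was 1.64 for Cdk1, 2.51 for Ccna2, 2.21 for Cdc25c, 2.18 for Plk1, 3.70 for Nek2, 2.50 for Melk and 1.86 for Foxm1. Of the passenger and checkpoint genes it was 1.39 for Incenp, 2.58 for Bub1, 1.13 for Bub3 and 1.34 for Mad2l1. Of the anaphase genes it was 1.64 for Pttg1, 3.45 for Espl1, 2.03 for Cdca5 and 2.39 for Cdca3. At the centromere and kinetochore it was 4.75 for Cenpa, 2.28 for Cenpe, 2.34 for Nuf2, 2.23 for Spc24 and 2.39 for Spc25. The size for Cenpa rests in part on 1 discordant array, since its allogeneic CD4+ arrays lay at -2.18 and 0.89. Of the kinesins it was 2.67 for Kif11, 2.16 for Kif20a, 3.05 for Kif2c, 2.88 for Kif4 and 1.98 for Kif22. Of the spindle and cytokinesis genes it was 2.96 for Tpx2, 2.20 for Nusap1, 1.86 for Prc1, 2.64 for Ckap2, 1.30 for Ect2 and 2.04 for Anln. Of the chromosome structure genes it was 1.96 for Mki67, 2.27 for Top2a, 1.19 for Smc2, 1.47 for Ncapd2 and 2.46 for Ncapg. On the syngeneic CD8+ arrays Cdc25c, Kif2c, Kif4 and Ncapg were not well above background at all, Nek2, Pbk and Nuf2 only on 1 of 3, and Bub1b, Espl1 and Kif11 on 2 of 3, and Ckap2 was so on 1 of 2 allogeneic CD4+ arrays. The interactions of these genes therefore rest wholly or in part on signals below background and are no measured sizes. For 2 further genes a second probe that passed the filter gave other differences between transplants. That of Cdk1 differed by 0.68 in CD8+ and 0.96 in CD4+ cells, and that of Tpx2 by 0.70 and -0.07. The interaction was not fitted for these probes alone.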

How the results depend on the processing

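Called genes of the 56 are given by setting where the count left the reported value by over 1.5 times, and the cause was not tested. In ovary against allogeneic spleen in CD4+ cells (2 called) the count was 4 with quantile normalization, 0 without the filter, 1 with the mean of probes, 4 with slide as a block, 6 on slide 1 alone, 0 on slide 2 alone, 0 with array weights, 0 with only the groups compared and 6 without the 2 dimmest arrays. In CD8+ cells (0 called) it was 35 with array weights, whose estimation stopped before converging. For allogeneic against syngeneic CD4+ cells (37) it was 0 on slide 2 alone, 22 with array weights and 0 with only the groups compared. For CD8+ against CD4+ cells it was 19 with quantile normalization, 17 without the filter and 0 on slide 2 alone in ovary (31), and 0 on slide 2 alone and 28 with only the groups compared in allogeneic spleen (47). In syngeneic spleen (4) it was 0 on slide 2 alone, 12 with array weights, 2 with only the groups compared and 7 without the 2 dimmest arrays. The tissue by subset interaction (0) gave 1 with quantile normalization, where 38 of 22836 features were called. The calls of the transplant by subset interaction (43) did not hold on slide 2 alone. For the interactions, a slide alone or leaving out the 2 dimmest arrays leaves 1 array in some CD4+ groups, so those counts are not given. A slide alone leaves few residual degrees of freedom and 1 array in each CD4+ group. Leaving out the 2 dimmest arrays leaves 1 array in each allogeneic CD4+ group. For ovary against allogeneic spleen in CD4+ cells, the calls over all features rose as well on slide 1 alone and without the 2 dimmest arrays. Not every mitotic gene called there was higher in ovary, so nothing is read from those counts.

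Medians that moved by more than the pooled spread of array medians (0.24) did so as follows. With normexp the median was 2.50 for CD8+ and 1.03 for CD4+ allogeneic against syngeneic cells, 1.39 for CD8+ against CD4+ cells in allogeneic spleen, 0.57 in ovary, and 1.49 for the transplant interaction. On slide 1 and slide 2 alone it was 0.18 and 0.98 for ovary against spleen in CD4+ cells, 1.91 and 1.16 for allogeneic against syngeneic CD4+ cells, and -0.60 and -1.10 for the tissue interaction. Without the 2 dimmest arrays these were 0.18, 1.79 and -0.54, and the median was 1.56 for CD8+ against CD4+ cells in allogeneic spleen and 1.94 for the transplant interaction. Leaving out 1 array at a time gave counts of 0 to 0 (CD8+) and 1 to 7 (CD4+) for ovary against spleen, 51 to 54 (CD8+) and 25 to 37 (CD4+) for allogeneic against syngeneic, and 10 to 24 in ovary, 43 to 48 in allogeneic spleen and 2 to 7 in syngeneic spleen for CD8+ against CD4+ cells. It gave 0 to 8 for the tissue interaction and 38 to 44 for the transplant interaction. The medians then ran from -0.39 to -0.17, 0.29 to 0.83, 3.69 to 3.94, 1.32 to 1.79, 0.66 to 1.01, 1.56 to 2.06, -0.46 to -0.24, -1.14 to -0.71 and 1.94 to 2.45 in the same order. Leaving out a CD4+ array leaves 1 in its group, and the calls over all features moved as well, so nothing is read from those counts.

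Same-numbered samples did not deviate together in every pair, so the numbers were not taken as pairs. With the replicate number as a block the counts were 0 (CD8+) and 0 (CD4+) for ovary against spleen, 55 and 38 for allogeneic against syngeneic, 19, 49 and 3 for CD8+ against CD4+ in ovary, allogeneic spleen and syngeneic spleen, 0 for the tissue interaction and 42 for the transplant interaction. Of the values of named genes under the alternatives, 1975 kept their direction and side of the threshold, 155 lost their call, 28 gained one, 0 called values turned direction, and 42, from 15 values without a call, turned direction without one. In ovary against spleen in CD4+ cells those were Cdc20 (-0.95, up to 1.26), Mki67 (0.36, down to -0.24), Cdk1 (0.29, down to -0.28), Foxm1 (0.57, down to -0.0049) and Aurkb, and in CD8+ cells Cdca8 (0.93, down to -0.17), Mki67 (-0.08, up to 0.02), Top2a (-0.21, up to 0.26) and Aurkb (-0.36, up to 0.22). In allogeneic against syngeneic CD4+ cells they were Cenpa (-1.29, up to 0.60) and Bub3 (-0.05, up to 0.19). For CD8+ against CD4+ cells they were Ccnb1 in ovary (-0.14, up to 0.76) and Smc4 in allogeneic spleen (0.11, down to -0.42), and among the interactions Cdc20 for tissue (0.45, down to -1.59) and Smc4 for transplant (-0.13, up to 0.57).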
